A study of Mus musculus with 3 samples.

Results

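The sites described here are the lower-tag HIF1A ChIP-seq peaks that both replicates of a mouse melanocyte line listed on the autosomes. They are replicate 1 peaks on chromosomes 1 to 19 with fewer than 200 sequence tags. Each overlaps a peak of replicate 2 by at least 1 bp. Being listed does not by itself establish binding, and the caller's false discovery rates are given below. Peaks in any 1 Mb window that held 8 or more peaks in either list were left out. There were 506 such sites among the 3055 peaks of replicate 1, each paired with its own peak among the 2680 of replicate 2. The cells were melan-Ink4a-Arf-null, an immortalized melanocyte line from mice homozygous for the Cdkn2a tm1RDp allele, grown with the phorbol ester TPA (200 nM), cholera toxin (200 pM) and 10% serum and kept in 1% oxygen for 24 h before crosslinking. The 2 HIF1A samples were precipitated with 10 µg of antibody, and 1 input sample served as the control for peak calling. Hypoxia was shared by all samples and no normoxic sample was analysed here, so nothing below separates binding that depends on low oxygen from binding that does not. All samples are of 1 line, and the labels do not state whether the replicates were separate cultures, so differences between them may be technical.

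HIF1A is the subunit of hypoxia-inducible factor 1 that responds to oxygen. In oxygen-rich cells prolyl hydroxylases mark it for VHL-dependent degradation. When oxygen is scarce it accumulates, pairs with ARNT and binds hypoxia response elements, through which genes of glucose uptake, glycolysis, angiogenesis and oxygen sensing are turned on. Melanocytes live in skin, a mildly hypoxic tissue. Positions below are in build mm9, counted from 1. The gene and promoter tables at hand describe GRCm38, whose last gene on chromosome 1 ends at 195291439, whereas the last peak of replicate 1 there ends at 196696850. For this reason no gene, promoter or base sequence is assigned to a site, and binding motifs were not searched.

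Tags, overlap and position chose the sites, so the values of tags, fold and score describe them and support no test. With 2 samples of 1 group, no comparison of conditions exists to be tested. Fold is the authors' enrichment over local background, and the score is 10 times the -log10 p-value of their caller. The lists were called against the same input, so values are set side by side and no correlation between the lists is given. Depth was 94716495 total tags in replicate 1 and 103139204 in replicate 2, of which 76075544 and 86978508 were unique. The control had 98309297 total tags, of which 65269163 were unique. The 506 sites covered 282 kb in replicate 1 and 222 kb in replicate 2, and held 12.0% and 13.2% of the tags that lay in peaks.

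The number of tags did not rank the lower-tag sites by enrichment. Across the 506, tags ranged from 22 to 199 in replicate 1 with a median of 114, and from 22 to 379 in replicate 2 with a median of 88. Fold ran from 2.92 to 16.27 in replicate 1 (median 5.76) and from 2.57 to 29.61 in replicate 2 (median 4.42). Within replicate 1, Spearman's rho of tags and fold across the 506 sites was -0.11 (Pearson's r -0.12), and within replicate 2 it was -0.43 (r -0.28). Long peaks had the lower fold: rho of length and fold was -0.34 (r -0.33) in replicate 1 and -0.51 (r -0.43) in replicate 2. Among the 271 sites that meet the same rule with 200 tags or more, tags and fold had a rho of 0.57 (r 0.47) in replicate 1 and 0.61 (r 0.46) in replicate 2. These are descriptions across sites of 1 library, which share depth and control, and the difference between the site classes was not tested. Tags rose with length among the lower-tag sites, with a rho of 0.89 (r 0.87) in replicate 1 and 0.93 (r 0.89) in replicate 2.

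**Figure D1:**
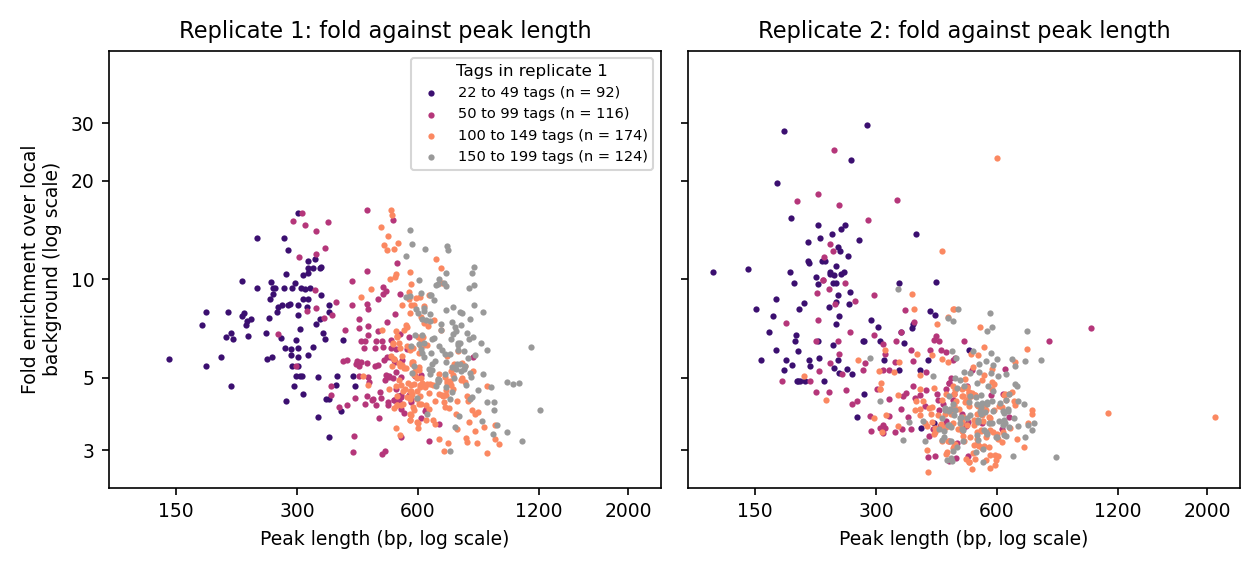
Fold enrichment (log scale) against peak length (bp, log scale) of the 506 sites in each replicate, 1 point per site, coloured by the tags of the replicate 1 peak. The sites with 22 to 49 tags are the short ones at the left, with a median fold of 7.51 in replicate 1 and 7.89 in replicate 2.

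The sites with a high fold in both lists were mostly short and of few tags, whereas those with a high fold in replicate 1 alone were longer. A fold of 10 or more was reached by 48 of the 506 sites in replicate 1 (9.49%, exact 95% interval 7.08 to 12.4%), where 9.36% of the whole list did. In replicate 2 it was reached by 41 (8.1%, 5.88 to 10.8%), where 9.59% of the whole list did. Both shares lie near those of the lists. The 22 sites with such a fold in both lists lay on 12 chromosomes and had a median of 51 tags over 319.5 bp in replicate 1 and 65 tags over 236 bp in replicate 2. Of these, 20 had fewer than 100 tags in replicate 1. Median tags per kb of the 22 were 164 in replicate 1 and 253 in replicate 2, against 187 and 195 across the 506. Summits of the 22 lay a median of 4 bp apart, and 21 of the 22 pairs were within 50 bp, against 67.6% of the 506.

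The best placed site over both lists was at chr1:12634745-12635045, with 49 tags and a fold of 15.91 in replicate 1 and 79 tags and 29.61 in replicate 2. Its summits were 3 bp apart. At chr3:141854508-141854956, replicate 1 had 83 tags at 16.27-fold and replicate 2 had 84 tags at 17.44-fold, with summits 4 bp apart. The site at chr2:60240680-60241013 had 55 tags and a fold of 14.02 in replicate 1 and 71 tags and 24.78 in replicate 2. All 3 were below 100 tags in either list, yet their fold was far above the median of the 506.

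At chr15:35093795-35094087 the fold was 15.07 from 62 tags in replicate 1 and 16.89 from 85 tags in replicate 2. The site at chr9:19379787-19380024 had 41 tags at 13.37-fold and 63 tags at 23.12-fold in replicates 1 and 2. At chr6:132413649-132413933, 38 tags gave 12.29-fold in replicate 1, and 73 tags over 177 bp gave 28.4-fold in replicate 2. Their summits were 2, 4 and 2 bp apart, in that order.

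The site at chr17:4626042-4626707 differed from these in being longer and in having more tags. It had 149 tags over 666 bp and a fold of 11.57 in replicate 1, and 255 tags over 601 bp and a fold of 23.53 in replicate 2. Its score of 1487.34 in replicate 2 was the highest there among the 506, whose median score was 96.2. The caller's false discovery rate for this site was nonetheless 77.78% in replicate 2, and it was 24.23% in replicate 1. The summits lay 126 bp apart, the farthest of the 22 sites.

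A fold of 10 or more in 1 list alone picked out sites of different shape in the 2 replicates. The 26 sites that reached it in replicate 1 alone had a median of 131.5 tags over 526.5 bp and a fold of 12.29 there. In replicate 2 they had 67 tags over 382.5 bp and 6.06-fold. Both lengths were below the medians of the 506, which were 569 bp in replicate 1 and 455 bp in replicate 2. The 19 that reached it in replicate 2 alone were short, with a median of 32 tags over 262 bp and 8.68-fold in replicate 1 and 36 tags over 230 bp and 11.36-fold in replicate 2. Summits were within 50 bp for 16 of the 26 and for 19 of the 19. An example of the first kind, chosen after its values were seen, is chr10:111489019-111489533, with 141 tags at 16.27-fold in replicate 1 and 74 tags at 8.11-fold in replicate 2. An example of the second is chr6:10136260-10136478, with 25 tags at 7.71-fold in replicate 1 and 55 tags at 19.66-fold in replicate 2. It had the largest ratio of replicate 2 to replicate 1 fold among the 506.

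At the other end, 47 sites on 18 chromosomes had a fold under 4 in both lists. They were the longer peaks, with a median of 125 tags over 695 bp in replicate 1 and 99 tags over 530 bp in replicate 2. The lowest mean rank of fold belonged to chr11:62364712-62365422, with 122 tags at 3.15-fold in replicate 1 and 98 tags at 2.65-fold in replicate 2. At chr9:105297404-105297890 the fold was 2.92 from 78 tags and 2.86 from 71 tags in replicates 1 and 2. Summits of the 47 lay a median of 49 bp apart, and 24 pairs were within 50 bp, against 67.6% of the 506.

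Grouping the sites by replicate 1 tags shows where each kind falls. The 92 sites with 22 to 49 tags had a median length of 297.5 bp and a median fold of 7.51 in replicate 1, and 236 bp and 7.89 in replicate 2. The 116 sites with 50 to 99 tags had median folds of 5.6 and 4.83 in replicates 1 and 2. For the 174 with 100 to 149 tags these were 4.9 and 3.97, and for the 124 with 150 to 199 tags 6.15 and 3.96. Median fold was thus highest in the lowest tag band in both lists. Each listed peak had passed the caller's p-value cutoff of 1e-05 (the lowest scores among the 506 were 50.1 and 50.12). The part of this cutoff in the high fold of the lowest band was not tested. Replicate 1 peaks without a partner also had their highest median fold in the lowest band, at 4.88, against 4.14, 3.99 and 4.21 in the bands above. Fold was higher in replicate 2 than in replicate 1 at 63 of the 92 sites of the lowest band (68.5%) and at 10 of the 124 of the highest (8.06%). The replicate 1 tags that define the bands also enter replicate 1 fold, so the split is a description.

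**Figure D2:**
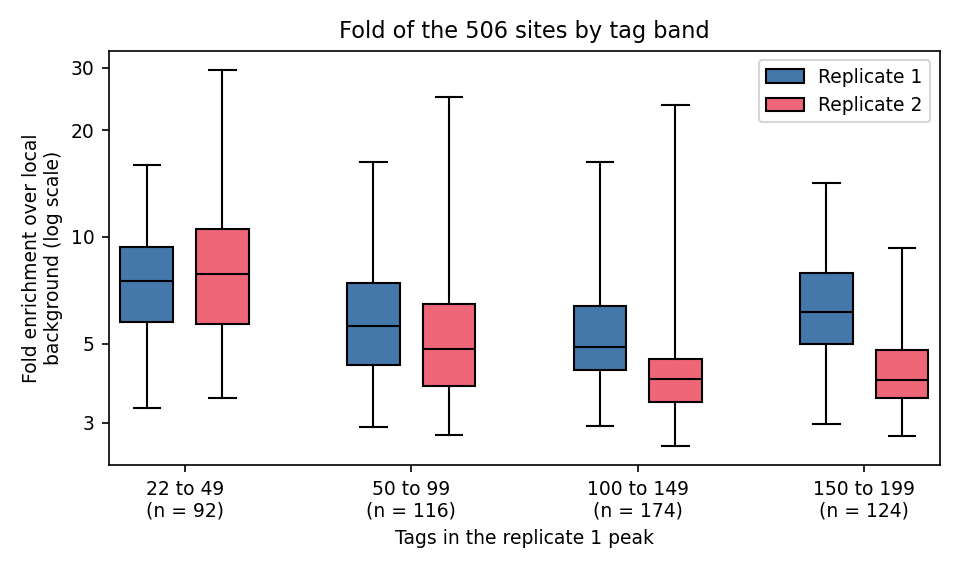
Fold enrichment (log scale) of the 506 sites in replicate 1 and replicate 2 by the tags of the replicate 1 peak; boxes span the quartiles, the line is the median and whiskers reach the lowest and highest site. The replicate 2 medians go from 7.89 in the lowest band to 3.96 in the highest.

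The ratio of tags per kb to fold also differed between these bands. It takes the mean coverage over the whole peak, so it equals the caller's background only if fold was made from that same mean. How the caller made fold was not examined here, so the ratio is not read as a background level. The ratio is not a count read from the input and, being made from tags and fold, is no independent measure. Its median was 16.6 tags per kb in replicate 1 and 21.0 in replicate 2 for sites with 22 to 49 tags, and 38.6 and 55.5 for sites with 150 to 199 tags. Tags per kb themselves were lowest in the lowest band, with medians of 121 in replicate 1 and 156 in replicate 2, against 241 and 217 in the highest. Input coverage at the sites was not used here, and its part in the high fold of short sites was not tested.

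Most paired peaks were nested and centred alike. The replicate 2 peak was the shorter at 436 of the 506 sites and lay wholly inside the replicate 1 peak at 324 (64.0%, 59.7 to 68.2%). The caller had estimated a fragment size of 68 bp in replicate 1 and 53 bp in replicate 2. Both lie below the 200 to 500 bp selected on the gel for each library. The part of these estimates in the widths and in the summit positions was not tested. Overlap covered at least 50% of the replicate 1 peak at 477 sites. The summit lay in the middle 50% of the peak at 489 sites in replicate 1 and 476 in replicate 2.

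The median distance between the summits of the 2 replicates was 27.5 bp, with quartiles of 10 and 71.8 bp, and 342 sites were within 50 bp (67.6%, 63.3 to 71.7%). Among the 271 sites with more tags the median was 26 bp and 186 were within 50 bp (68.6%, 62.7 to 74.1%), so the intervals of the site classes overlap. Peak centres, which do not depend on the summit, were within 50 bp at 335 of the 506. The lowest tag band had the closest summits: a median of 6 bp and 79 of 92 sites within 50 bp (85.9%, 77.0 to 92.3%). In the other bands the medians were 30.5, 35 and 33.5 bp, and 62.9, 60.9 and 67.7% of sites were within 50 bp. Peaks of the lowest band were also the shortest, and the part of length in this was not tested. Their centres were a median of 23.3 bp apart, against 30.8 to 37 bp in the other bands.

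**Figure D3:**
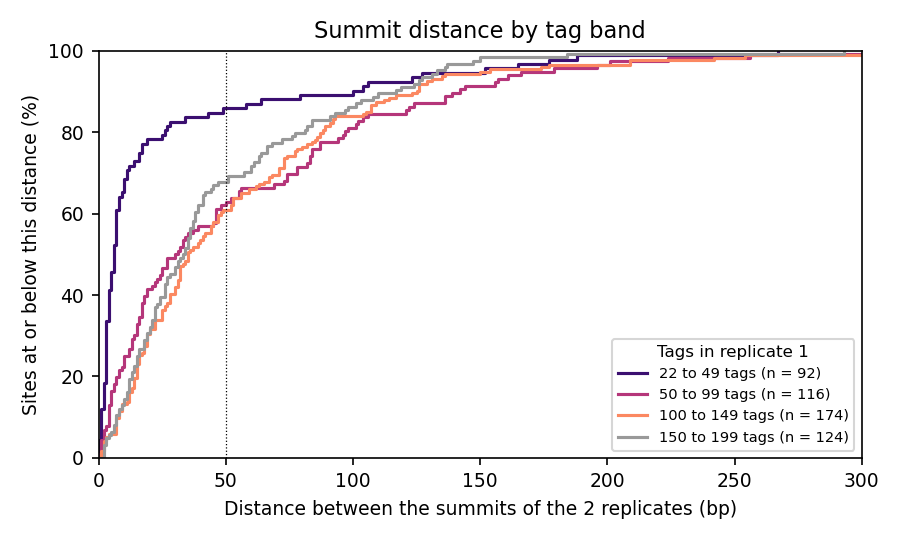
Cumulative share of sites (%) against the distance between the summits of the 2 replicates (bp, shown to 300 bp), 1 line per tag band, with a dotted line at 50 bp. At 50 bp the line of the 22 to 49 tag band stands at 85.9% and the others between 60.9 and 67.7%.

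Summits disagreed by more than 200 bp at 12 sites. The largest distance, 1209 bp, was at a chromosome 18 site with 141 tags over 932 bp at 3.57-fold in replicate 1, whose replicate 2 peak was 2090 bp long with 379 tags at 3.8-fold. At chr1:84971365-84972213 the summits were 642 bp apart, with 124 tags at 3.93-fold in replicate 1 and 204 tags at 3.89-fold in replicate 2. In both cases replicate 2 had the longer peak and more tags, against the usual order. At 5 sites the replicate 1 peak held 2 peaks of replicate 2. The clearest was chr7:51435926-51436444, with 82 tags at 15.18-fold in replicate 1, which covered replicate 2 peaks of 65 tags at 12.85-fold and of 35 tags at 11.76-fold.

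Spacing is given as a description, because leaving out windows with 8 or more peaks removed 210 of the 716 low-tag overlapping peaks and so the most closely packed ones. The nearest other site of the 506 was a median of 1.07 Mb away, and 30 sites (5.93%, 4.04 to 8.36%) had one within 10 kb, forming 13 groups. The nearest other replicate 1 peak of any kind was a median of 0.238 Mb away, and 67 sites (13.2%, 10.4 to 16.5%) had one within 10 kb, 30 of them within 1 kb. A site with 200 tags or more lay within 10 kb of 16 (3.16%, 1.82 to 5.08%). Of the groups, 11 were pairs.

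The largest group had 5 sites on chromosome 1 between 172963782 and 172975455. Their fold in replicate 1 was 9.15, 15.77, 12.37, 13.52 and 8.95 from left to right, with 118 to 144 tags, and in replicate 2 it was 3.97, 7.65, 5.6, 8.09 and 4.63, with 58 to 91 tags. Each of the 5 had the higher fold in replicate 1. A group of 3 on chromosome 2 from 122200975 to 122204068 had the same order, at 6.76, 7.86 and 9.07-fold in replicate 1 and 3.58, 3.64 and 5.75-fold in replicate 2. That order was the usual one at such tags. Fold was higher in replicate 2 at 13.8% of all sites with 100 to 149 tags and at 8.06% of those with 150 to 199.

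Some pairs were of the short, high-fold kind. At chr5:83606203-83606511 and chr5:83606565-83606897, 53 bp apart, the fold was 15.95 and 11.57 in replicate 1 and 17.31 and 15.41 in replicate 2, from 42 to 68 tags. At chr10:33456695-33457008 and chr10:33457113-33457464, 104 bp apart, it was 14.66 and 12.48 in replicate 1 and 18.26 and 9.94 in replicate 2. In each pair the summits of the replicates were at most 14 bp apart.

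Of the 1445 autosomal replicate 1 peaks under 200 tags outside the dense windows, the 506 sites are 35% (32.6 to 37.5%), against 58.1% of replicate 1's whole list and 78.8% (74.1 to 83.0%) of the 344 peaks with 200 tags or more outside the windows. By band, overlap was 32.2% at 22 to 49 tags, 27.2% at 50 to 99, 35.2% at 100 to 149 and 52.3% (45.8 to 58.8%) at 150 to 199. The intervals of the first 3 bands overlap in part, and that of the highest lies above them. The 939 peaks of replicate 1 with no partner had a median of 94 tags over 539 bp, close in width to the 569 bp of the shared sites, but a median fold of 4.27 against 5.76. In the lowest band the medians were 4.88 for the 194 peaks without a partner and 7.51 for the 92 with one. Overlap is part of the rule, so these medians carry no test.

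**Figure D4:**
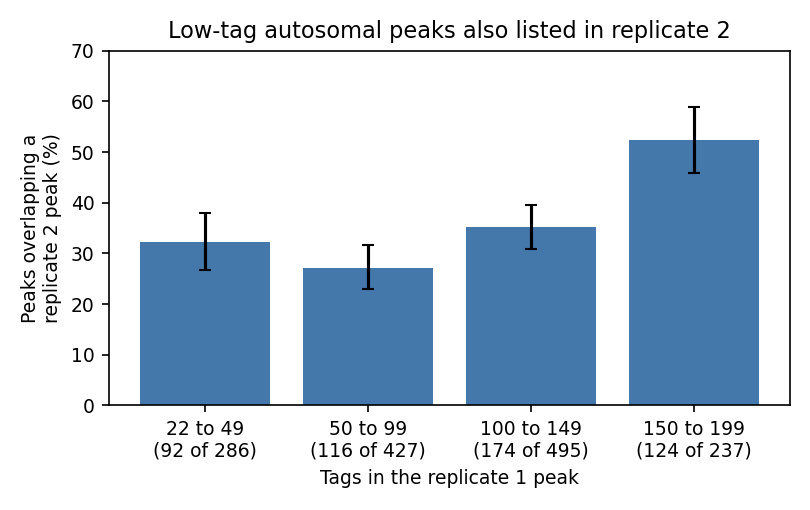
Share of low-tag autosomal replicate 1 peaks outside dense windows that overlap a replicate 2 peak (%), by tags of the replicate 1 peak; error bars are exact 95% binomial intervals and the counts stand under each bar. The share is 27.2% at 50 to 99 tags and 52.3% at 150 to 199 tags.

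Seen from replicate 2, low tags went with a low share. Of replicate 2 peaks chosen by the same rule, 101 of 278 with fewer than 50 tags overlapped replicate 1 (36.3%), against 90.7, 95.7 and 96.3% in the bands above.

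The sites at the tag threshold had these values. Just inside it, chr11:34495165-34495804 had 199 tags at 5.32-fold in replicate 1 and 262 at 5.93-fold in replicate 2, and chr14:65976783-65977645 had 198 tags at 6.37-fold and 146 at 3.93-fold. Just outside, chr8:86721893-86722816 had 200 tags at 3.85-fold and 162 at 3.42-fold, and chr1:155411459-155412535 had 200 tags at 8.5-fold and 68 at 4.81-fold. The replicate 2 peak of 6 sites had 200 tags or more.

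Many of the sites carried a high false discovery rate from the caller. In replicate 1 the rate was 100% at 218 of the 506 (43.1%), where 54.3% of the whole list had that rate, and in replicate 2 at 295 (58.3%), where 54.7% did. It was 25% or less in replicate 1 at 13 sites (2.57%), where 7.14% of the list were. The lowest was 20.71% in replicate 1 and 59.34% in replicate 2. Of the 22 sites of 10-fold or more in both lists, 8 had a rate of 100% in replicate 1 and 2 had it in replicate 2.

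All 19 autosomes held sites, from 12 on chromosome 19 to 41 on chromosome 7. Relative to protein-coding genes, taken from the GRCm38 table, chromosome 12 held the most, with 28 sites (5.53%, 3.71 to 7.9%) against 3.29% of autosomal genes. Chromosome 17 held the fewest, with 15 (2.96%, 1.67 to 4.84%) against 5.13%. These were 1.68 and 0.578 times the share of genes, and on each of the other autosomes the interval of the share of sites held the share of genes. Low-tag replicate 1 peaks outside the dense windows numbered 67 on chromosome 12 and 64 on chromosome 17. Of these, 41.8% and 23.4% were sites, the highest and lowest shares of any autosome, against 35% of all 1445. The gene counts include genes in the windows left out, and no test was made. Every tag band had sites on all 19 autosomes, and median fold per chromosome stayed between 5.22 and 6.83 in replicate 1 and between 3.79 and 5.73 in replicate 2.

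**Figure D5:**
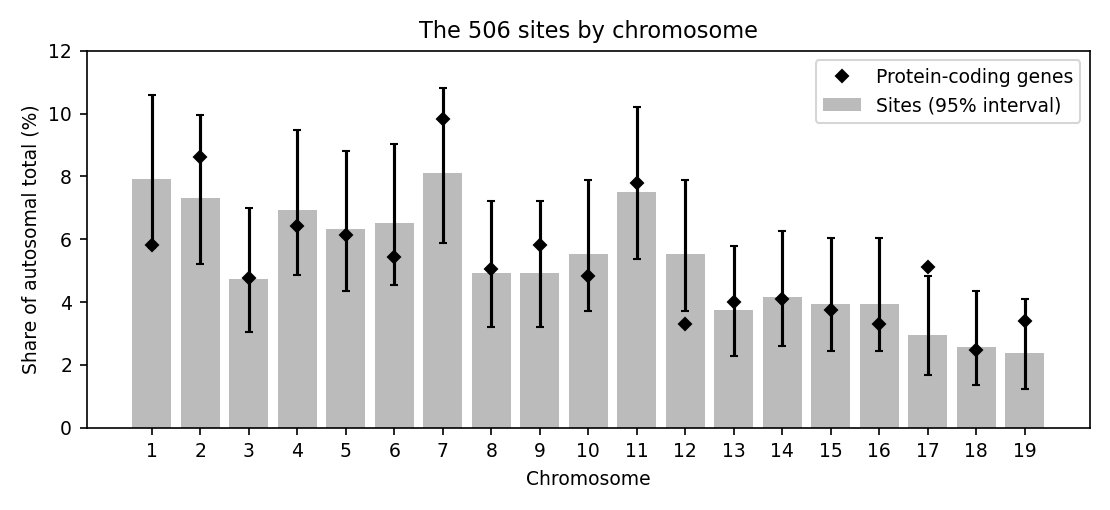
Share of the 506 sites on each autosome (%, bars, with exact 95% binomial intervals) and share of autosomal protein-coding genes (diamonds, GRCm38 table). Chromosome 12 has 5.53% of sites and 3.29% of genes, and chromosome 17 has 2.96% and 5.13%.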

How the data were processed

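HIF1A ChIP-seq was described from the deposited peak lists of 2 ChIP replicates, 1 list each. The authors called peaks separately per library with MACS in Galaxy against 1 control, per the file headers (version 1.4.2 and build mm9, per the submitters' processing notes), at a p-value cutoff of 1e-05. Which aligner was used is not given in the sources here. Each deposited list gives the raw count of ChIP tags per peak, the fold enrichment (a ratio to local background), a p-based score and, in percent, a false discovery rate, as the authors' caller wrote them. Total tags were 94716495 and 103139204 in replicates 1 and 2.

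Sites were chosen as the report's opening says, and each was paired with the replicate 2 peak sharing the most bases. Dense windows numbered 40, of which 31 were autosomal, and they removed 210 of 716 low-tag overlapping autosomal peaks. The selection was tested on simulated lists, and its overlap count was checked with bedtools 2.31.1. Quantities were computed with pandas 2.3.3, and exact (Clopper-Pearson) 95% binomial intervals, which cover counting error only and treat sites as independent, with scipy 1.17.1. The members, lists and bands were chosen with earlier results of these data known. Named sites are those of highest and lowest mean rank of fold, most tags, largest summit distance or ratio of fold, sites at the threshold, sites holding 2 replicate 2 peaks and sites within 10 kb of another. A planned correlation of the lists is not given, since they share a control, and the planned start-site, gene-list and motif counts were not run. Alternatives covered the overlap rule, tag threshold, windows, reference list and leaving out a replicate.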

Additional observations from a re-analysis of the deposited data

How the results depend on the processing

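Of 39 values recomputed under other settings, 31 stayed within the range allowed: 1.5 times for the number of sites, the exact interval for shares, and 0.944 (the SD of the 2 lists' medians) for the median fold of 5.09 averaged over the lists. The range for median fold was made from the medians of the 2 lists, 5.76 and 4.42, and holds both of them. Values of median fold that stayed within it therefore say little about stability. The number of sites was 506 as reported, and leaving out a replicate, which drops the overlap requirement, gave 855 to 1445 sites. Without replicate 2, the 1445 sites had a median fold of 4.7 in replicate 1, where that of the 506 was 5.76. Without replicate 1, the 855 sites had a median fold of 4.79 in replicate 2, where that of the 506 was 4.42. Median fold was thus lower in the first case and higher in the second. The share of low-tag peaks with a partner, 35.0%, was 31.6% with fewer than 150 tags, 29.8% when summits had to lie within 100 bp, 39.2% with no window dropped and 75% with replicate 2 as the reference list. The share of sites with summits within 50 bp, 67.6%, was 61.5% with no window dropped and 79.6% when summits had to lie within 100 bp, a rule that selects on that distance. The cause of the other shifts was not tested. Leaving out the sites within 10 kb of another, added after seeing the data, gave 476 sites and 66.8%. Shares that need both lists have no value without a replicate. Start-site and motif alternatives were not run. No paired analysis was possible because no second group with replicates exists to pair with. Depth could limit which weak sites both lists hold, and this was not tested because reads were not used here.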
